A study of Bos taurus with 10 samples.

Results

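*NLRP5*, *GTSF1* and *MARF1* are germline genes of cattle, and their transcripts were followed here on 10 Affymetrix bovine arrays of oocytes. A probe set was taken as a member where its single annotated gene was one of the 3, by current or former symbol (*MATER* for *NLRP5*, *KIAA0430* for *MARF1*). Each gene had 1 such probe set, so there were 3 members among 24016 probe sets that were not controls. The genes were chosen by their known roles together with their differences between the groups of these same arrays. The differences are therefore given as a description, with no test.

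The oocytes were in vitro matured (IVM) oocytes, cultured inside their cumulus for 24 h in medium with serum and epidermal growth factor, and immature oocytes taken at 0 h. There were 5 pools in each group, with 1 pool of each group made on each day of ovary collection, and every pool had its own array. Both groups came from aspirated follicles of abattoir cows, whose age the labels do not give, were stripped of cumulus under the microscope before freezing, and carried no genetic change or other treatment. In pools of this kind, fewer cells of a type and less RNA per cell cannot be told apart.

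NLRP5, also called MATER, is a maternal-effect protein. In the mouse it belongs to the subcortical maternal complex with OOEP, TLE6, KHDC3 and PADI6, and embryos of females without it arrest early in cleavage. GTSF1 is a small zinc-finger protein that in the mouse works with PIWI proteins, the carriers of piRNAs, in the silencing of transposons in male germ cells. MARF1 is an RNA-binding ribonuclease of oocytes. Mouse oocytes without it stay arrested before the first meiotic division and hold raised levels of retrotransposon transcripts and of *Ppp2cb*, and in human cells the protein binds factors that remove the cap of mRNAs. A growing oocyte stores such maternal transcripts, and during maturation many of them are shortened at the poly(A) tail, translated or destroyed. Reports on transcription during maturation conflict. The paper proposes, from oocytes matured with the transcription inhibitor α-amanitin, that bovine oocytes make some new transcripts after meiosis resumes.

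*NLRP5* was lower in IVM oocytes. The log2 values were 10.03, 9.46, 9.48, 8.41 and 10.41 in IVM replicates 1 to 5, against 13.55, 13.80, 13.66, 13.39 and 13.57 in immature replicates 1 to 5. The groups did not overlap, and 2.98 on the log2 scale separated the highest IVM array from the lowest immature array. IVM oocytes averaged 9.56 ± 0.76 and immature oocytes 13.59 ± 0.15 (log2, SD, n = 5 each), a difference of -4.03 (standard error 0.34). In the deposited values, for which alone the ratio holds, this is a signal 16.4-fold higher in immature oocytes. The spread was unequal. The IVM values covered 2.0 on the log2 scale and the immature values 0.40, with IVM replicate 4 the lowest and IVM replicate 5 the highest of the matured pools. Between pools of equal replicate number, the difference ran from -4.98 (replicate 4) to -3.16 (replicate 5).

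*GTSF1* was also lower in IVM oocytes. Its log2 values were 5.94, 5.62, 6.38, 5.54 and 6.26 in IVM replicates 1 to 5 and 10.80, 10.99, 10.54, 10.72 and 11.07 in immature replicates 1 to 5. Every IVM pool lay at least 4.16 below every immature pool. The means were 5.95 ± 0.37 in IVM and 10.82 ± 0.21 in immature oocytes (log2, SD, n = 5 each), a difference of -4.87 (standard error 0.19). The IVM values all lay below the median of every array (7.04 to 7.10), and no measure of background was used here, so the ratio of signals, 29.3-fold higher in immature oocytes, holds for the deposited values only. The spread was closer between the groups than for *NLRP5*, with a range of 0.835 in IVM and 0.536 in immature oocytes. Same-numbered pools differed by -5.37 (replicate 2) to -4.16 (replicate 3).

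*MARF1* went the other way. In IVM replicates 1 to 5 it had log2 values of 9.63, 9.62, 9.53, 9.95 and 9.44, against 7.41, 7.33, 7.19, 7.44 and 7.68 in immature replicates 1 to 5. Again no value of one group reached the other, and 1.76 lay between them. IVM oocytes averaged 9.63 ± 0.19 and immature oocytes 7.41 ± 0.18 (log2, SD, n = 5 each), a difference of 2.22 (standard error 0.12) or a signal 4.67-fold higher in IVM oocytes. The immature values lay little above the array medians (7.04 to 7.10), so this ratio too holds for the deposited values only. The pools repeated about equally well in both groups, with a range of 0.509 in IVM and 0.489 in immature oocytes. The difference between same-numbered pools was smallest in replicate 5 (1.76) and largest in replicate 4 (2.51).

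**Figure D1:**
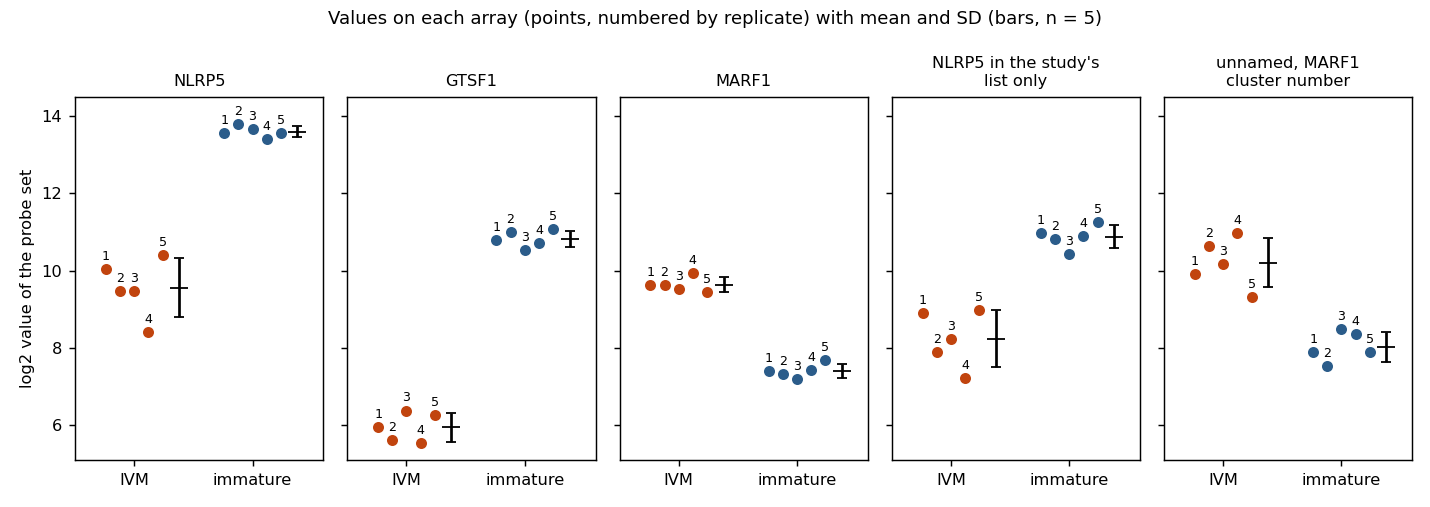
Log2 value of each probe set on the 10 arrays, with IVM oocytes at the left and immature oocytes at the right of each panel. Points are arrays, numbered by replicate, and bars show the mean and SD (n = 5). The 3 genes come first, followed by the probe set that the study's list alone names *NLRP5* and the unnamed probe set with the cluster number of *MARF1*; the groups do not overlap in any panel, and the IVM points of *NLRP5* spread over 2.0 against 0.40 for the immature points.

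Most probe sets of this array carried one constant value after the authors' summarisation, and 9460 of the 24016 varied by at least 0.01 on the log2 scale. All 3 genes were among those that varied. The median difference of the 9460 was 0.18, with quartiles of -0.78 and 0.81. A difference as low as that of *NLRP5* was found for 133 of them (1.41%), and one as low as that of *GTSF1* for 41 (0.433%). A difference as high as that of *MARF1* was found for 280 (2.96%). Groups that do not overlap were common on this array. They lay lower in IVM for 29.3% and higher in IVM for 27.0% of the varying probe sets.

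**Figure D2:**
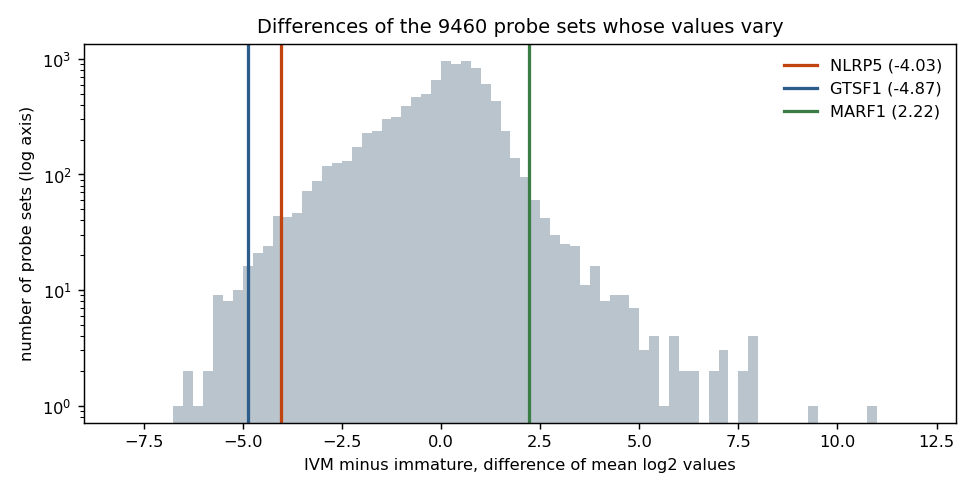
Histogram of the difference of mean log2 values, IVM minus immature, over the 9460 probe sets that varied. The vertical axis is logarithmic, and coloured lines mark the 3 genes, with *GTSF1* (-4.87) and *NLRP5* (-4.03) in the left tail and *MARF1* (2.22) in the right tail.

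The matured pools varied more than the immature pools over the whole array. The median SD of the varying probe sets was 0.311 in IVM and 0.187 in immature oocytes, and the IVM SD was the larger in 77.7% of them. *NLRP5* was among the more variable transcripts of IVM oocytes, with an SD above that of 90.0% of the varying probe sets, whereas in immature oocytes its SD was above that of 35.9%. *GTSF1* stood at 60.7% in IVM and 58.3% in immature oocytes. *MARF1* was among the steadier transcripts of IVM oocytes, at 25.4%, and stood at 47.3% in immature oocytes.

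A second probe set is named *NLRP5* in the study's own list and unnamed in the platform annotation, and was kept beside the members. It had log2 values of 8.91, 7.88, 8.22, 7.21 and 8.97 in IVM replicates 1 to 5 and 10.98, 10.83, 10.42, 10.89 and 11.26 in immature replicates 1 to 5. As for the annotated probe set, all IVM values were lower, replicate 4 was the lowest IVM pool and replicate 5 the highest. The difference was -2.64 (standard error 0.36), smaller than the -4.03 of the annotated probe set.

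Another unnamed probe set shares the cluster number of the *MARF1* probe set. Its log2 values were 9.92, 10.64, 10.17, 10.98 and 9.32 in IVM replicates 1 to 5, against 7.88, 7.53, 8.48, 8.36 and 7.88 in immature replicates 1 to 5. Its difference of 2.18 (standard error 0.33) lay close to the 2.22 of *MARF1*, with a wider spread in IVM oocytes (SD 0.64) and in immature oocytes (SD 0.39). Of 2 further probe sets with these cluster numbers, the one beside *MARF1* was constant at 7.33 and the one beside *NLRP5* at 6.65 on every array, and they hold no information on either group.

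Within the groups, the 3 transcripts deviated differently in IVM and in immature pools. Over the IVM arrays r was 0.642 between *NLRP5* and *GTSF1*, -0.892 between *NLRP5* and *MARF1*, and -0.796 between *GTSF1* and *MARF1*. Over the immature arrays these were 0.225, -0.412 and 0.748. The deviations of the 10 arrays from their group means had r = 0.568 between *NLRP5* and *GTSF1*, r = -0.696 between *NLRP5* and *MARF1*, and r = -0.254 between *GTSF1* and *MARF1*. These coefficients describe 5 arrays of each group, and the genes of an array share its RNA, amplification and hybridization. Without IVM replicate 4 the coefficients over both groups became 0.275, -0.329 and 0.160. IVM replicate 4 held the lowest *NLRP5*, the lowest *GTSF1* and the highest *MARF1* value of the matured pools. Over both groups the annotated *NLRP5* probe set and the second one deviated together (r = 0.856, and 0.662 without that array). Their r was 0.969 over the IVM arrays and -0.328 over the immature arrays. For *MARF1* and its unnamed neighbour r was 0.412 over both groups, and 0.0395 without IVM replicate 4. It was 0.837 over the IVM arrays and -0.322 over the immature arrays.

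Marker genes of the cells in the pools were divided in direction within each list. Of 12 oocyte markers, 7 were found by name and all 7 varied, and their mean log2 value lay at 10.56 to 11.84 in IVM and 12.59 to 13.12 in immature oocytes. The difference was negative for 4 and positive for 3 (median -0.66). At an adjusted p under 0.0001 (limma, over all probe sets), 1 of the 7 fell (14.3%) and 0 rose. Of all varying probe sets, 12.1% were lower and 2.38% higher at that threshold. The one that fell was *ZP3*, a zona pellucida protein, with a difference of -3.78 (adjusted p = 6.49e-05, limma). *GDF9*, an oocyte growth factor, had the larger difference of -4.42 (adjusted p = 3.09e-04), and *ZP4* had -3.15 (adjusted p = 4.95e-04). Neither passed, although their groups did not overlap. *ZP2* had -0.66, and the positive differences were 0.37 for *KPNA7*, 0.14 for *MOS* and 0.19 for *BMP15*, another growth factor (adjusted p = 0.717). None of these passed. Of 20 cumulus and granulosa markers 16 varied, with means of 8.69 to 10.58 in IVM and 7.48 to 9.31 in immature oocytes, and *FOXL2*, *CD44*, *NR5A1* and *LHCGR* were constant. The difference was negative for 9 and positive for 7 (median -0.33), and the ranges of the means overlapped. Of the 16, 1 rose and 1 fell (6.25% each). *TNFAIP6*, a matrix gene of the expanding cumulus, rose by 10.86 (adjusted p = 7.63e-05, limma). Its values ran from 3.27 to 17.13, so this size holds for the deposited values only. A second *TNFAIP6* probe set had a difference of 2.71 and did not pass (adjusted p = 0.0011, limma). *KITLG*, the kit ligand of granulosa cells, fell by 0.66 (adjusted p = 4.54e-05, limma). The next differences in size were 6.38 for *PTX3* and 3.96 for *VCAN*, matrix genes of the cumulus, and -1.79 for *FST*, a binding protein of activin, and these did not pass. The calls of *ZP3* and *TNFAIP6* each ended when any 1 array other than IVM replicate 5 was left out. That of *KITLG* ended when any 1 other than immature replicates 2 and 4 was. With the replicate block over all probe sets the adjusted p of the 3 was 0.00234, 0.00189 and 0.00359 (limma). No probe set of the array passed in that fit (smallest adjusted p 1.76e-04), so it cannot tell whether these calls are firm. Of 17 markers of other somatic cells, 16 were found and 4 varied (*LUM*, *DCN*, *VIM* and *KRT18*), with means of 8.11 to 10.99 in IVM and 6.58 to 9.18 in immature oocytes, while *PTPRC*, *PECAM1*, *COL1A1* and *HBB* were among the constant ones. Of the 4, *VIM* had a negative difference (-2.51) and the others positive ones, and 0 passed. The paper reports *LUM* as higher in matured than in immature oocytes by quantitative PCR, both in vitro and in vivo. It found less *LUM* after maturation with α-amanitin, and proposes that the gene may mark oocyte maturation. The cell of origin of the *LUM* signal was not tested here.

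Array by array, *NLRP5* followed the oocyte markers most closely. Its deviations had r = 0.935 with the mean of the oocyte markers and -0.778 with that of the cumulus and granulosa markers (0.863 and -0.672 without IVM replicate 4). *GTSF1* had r = 0.748 and -0.739 (0.626 and -0.629 without that array). *MARF1* had r = -0.609 and 0.389, and these became -0.230 and 0.0115 without IVM replicate 4. The unnamed neighbour of *MARF1* had r = 0.942 with the cumulus and granulosa markers, and 0.914 without that array. IVM replicate 4 had the lowest oocyte mean (10.56), the highest cumulus and granulosa mean (10.58) and the highest mean of other somatic markers (10.99). The part of these markers in the differences of the 3 genes was not tested. The differences without IVM replicate 4 are in the range given for leaving out single arrays, which was -4.25 to -3.75 for *NLRP5*, -4.98 to -4.77 for *GTSF1* and 2.14 to 2.29 for *MARF1*.

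**Figure D3:**
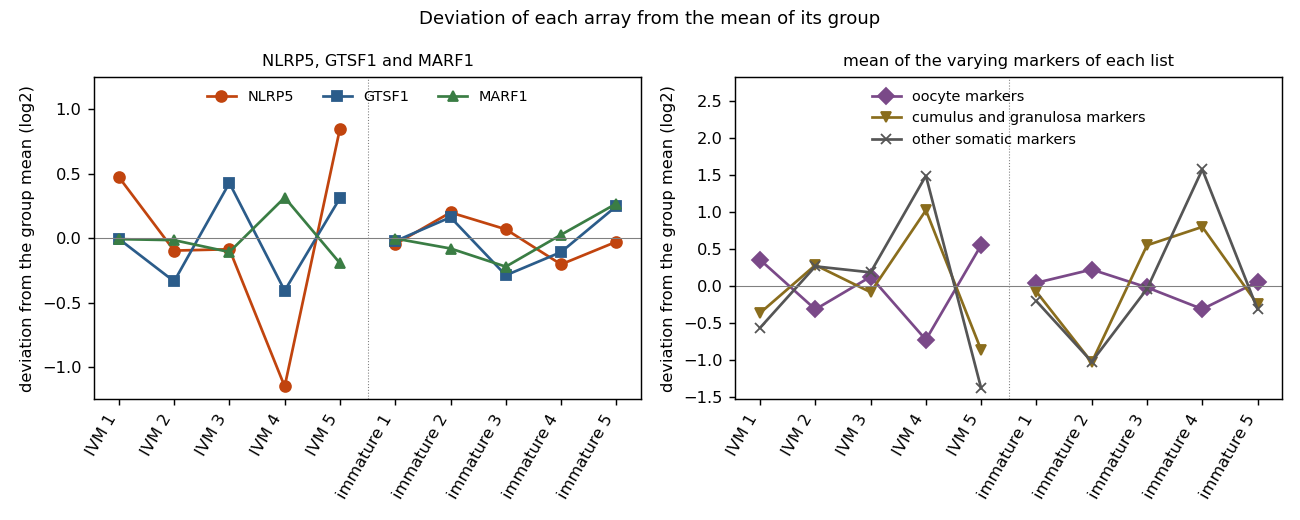
Deviation of each array from the mean of its group on the log2 scale, with IVM replicates left of the immature replicates. The left panel has the 3 genes and the right panel the mean of the varying markers of each list; IVM replicate 4 has the lowest *NLRP5* value and the lowest oocyte marker mean of its group together with the highest cumulus and granulosa mean.

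Spiked control transcripts also differed between the groups. The poly-A controls, which enter with the RNA, averaged 7.95 ± 0.20 on IVM and 7.02 ± 0.15 on immature arrays (log2, SD, n = 5 each), with p = 0.00794 in a two-sided exact permutation test, which is the lower limit for groups of 5. The hybridization controls, added after labelling, averaged 10.92 ± 0.19 on IVM and 10.02 ± 0.73 on immature arrays, with p = 0.0556 in the same exact test. Setting each array to its poly-A controls lowered every difference by 0.94, to -4.97 for *NLRP5*, -5.81 for *GTSF1* and 1.29 for *MARF1*. The direction was the same for each of the 3 genes.

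The genes most like each member were those with the highest Pearson r over the 10 arrays among 6150 varying probe sets with 1 gene symbol. Such an r mostly follows the difference between the groups. An r above 0.95 was reached by 898 probe sets for *NLRP5*, 1109 for *GTSF1* and 194 for *MARF1*. For *NLRP5* the first 5 were *HEXIM2*, an inhibitor of the elongation kinase P-TEFb (r = 0.998), *HSPA2*, a chaperone of germ cells (0.997), *TMIGD1*, a cell adhesion protein (0.997), *MCM3*, a subunit of the replicative helicase (0.997), and *ACTN1*, an actin cross-linker (0.997). *HEXIM2* averaged 7.55 ± 0.73 in IVM and 12.4 ± 0.21 in immature oocytes (log2, SD, n = 5 each). *MCM3*, at 7.72 ± 0.53 in IVM and 11.8 ± 0.21 in immature oocytes, had a difference of -4.05, next to the -4.03 of *NLRP5*. Their r of deviations from the group means was 0.941 to 0.965. It comes from the arrays by which the 5 were chosen, so it is no separate evidence of likeness.

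For *GTSF1* the first 5 were *LSM3*, a subunit of the LSm rings of mRNA decapping and of the U6 spliceosomal RNA, *CWC15*, a spliceosome protein, *CENPM*, a centromere protein, *MTUS1*, a microtubule-associated protein, and *MVP*, the major vault protein, all with r = 0.997 or 0.998. *CENPM*, at 6.64 ± 0.56 in IVM and 11.6 ± 0.09 in immature oocytes, had a difference of -4.96, close to the -4.87 of *GTSF1*, and *MTUS1* one of -4.63. The r of deviations from the group means ran from 0.766 (*MTUS1*) to 0.920 (*CWC15*).

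For *MARF1* the first 5 were *CLIP3*, a CAP-Gly domain protein (r = 0.991), *RAB11FIP5*, an adaptor of recycling endosomes (0.991), *UBAC2*, a membrane protein of the endoplasmic reticulum (0.990), *SEPTIN2*, a filament-forming GTPase (0.990), and *BECN1*, a core autophagy protein (0.990). Their differences were unequal. *RAB11FIP5*, at 9.16 ± 0.05 in IVM and 8.82 ± 0.04 in immature oocytes, was higher by 0.34, while *BECN1*, at 11.5 ± 0.25 in IVM and 9.56 ± 0.29 in immature oocytes, was higher by 1.95. Their r of deviations, again from the arrays by which they were chosen, ran from 0.547 (*CLIP3*) to 0.842 (*RAB11FIP5*).

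**Figure D4:**
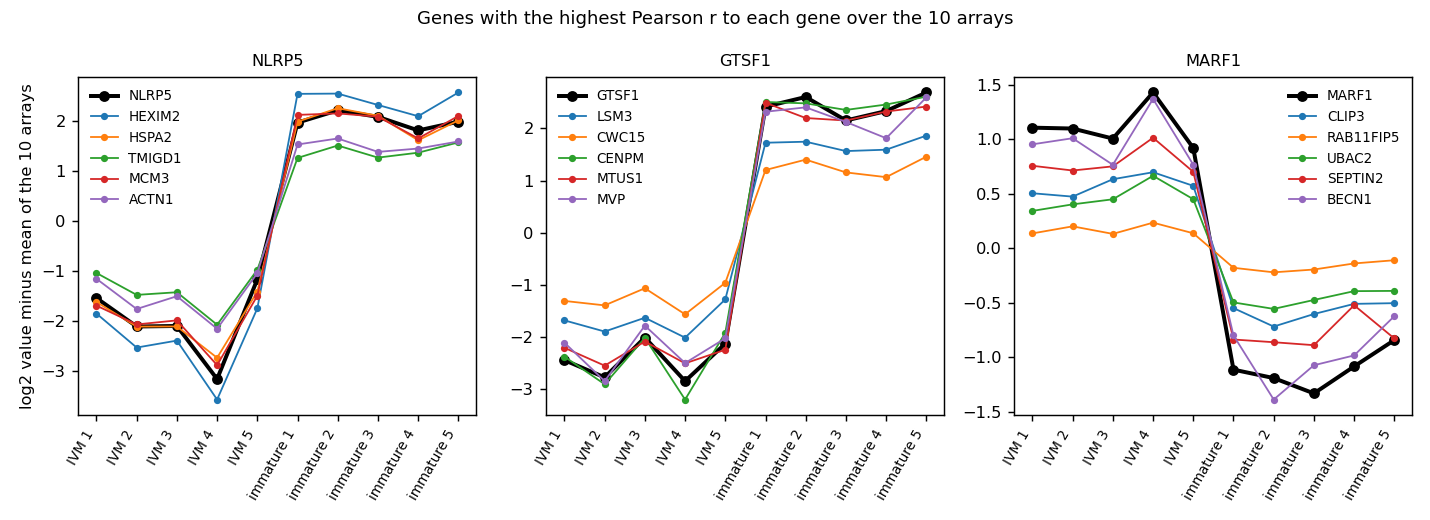
Log2 value minus the mean of the 10 arrays for *NLRP5*, *GTSF1* and *MARF1* (black) and for the 5 genes with the highest Pearson r to each, with IVM arrays left of the immature arrays. The lines share the step between the groups, from a large step in the first and second panels to an unequal one in the third, where *RAB11FIP5* differs by 0.34 and *BECN1* by 1.95.

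Partners and relatives of the 3 genes were counted in 8 lists with 143 genes, of which 61 were found by name and 48 varied. Calls were made with limma at an adjusted p under 0.0001 over all 24016 probe sets, where 4.81% were lower in IVM and 0.974% higher (12.1% and 2.38% of those that varied). Of the 48 genes, 8 fell (16.7%), 1 rose (2.08%) and 39 did not pass. Their median difference was 0.32, against 0.18 for all varying probe sets. At an adjusted p under 0.05, 15 fell (31.2%) and 21 rose (43.8%), beside 31.7% lower and 34.0% higher of all that varied. With the poly-A controls as the reference, 20 fell and 0 rose at 0.0001. With the replicate number as a block, 0 fell and 0 rose over all probe sets, where no probe set of the array passed (limma, smallest adjusted p 1.76e-04). Before adjustment, 15 lower and 22 higher genes of the lists passed 0.05 there. The same block over the varying probe sets alone left 5 that fell and 1 that rose.

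Most other genes of the subcortical maternal complex were not found by name, and 10638 probe sets of the array were unnamed here. Of 6 partners of *NLRP5* only *OOEP* was found by name, at 10.65 ± 0.65 in IVM and 10.77 ± 0.16 in immature oocytes (log2, SD, n = 5 each), a difference of -0.12 (standard error 0.30, adjusted p = 0.846, limma). The IVM values of *OOEP* were 10.86, 10.52, 11.04, 9.58 and 11.23 for replicates 1 to 5, so replicate 4 was again the lowest and replicate 5 the highest. None of 8 germline NLRP genes was found by name. Of the inflammasome genes, which include NLRP relatives of *NLRP5* and the proteases and cytokines downstream of them, 2 varied. *CASP1*, the protease that matures interleukins, had a difference of -1.39 (adjusted p = 5.26e-04, limma) and *IL18*, one of its substrates, one of 1.54 (adjusted p = 0.00813), and neither passed.

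Among 5 varying genes of the piRNA pathway, to which *GTSF1* belongs, 2 fell, 0 rose and the median difference was -0.15. *PRMT5*, the methyltransferase that marks PIWI proteins for Tudor binding, had log2 values of 9.01, 8.85, 8.73, 8.88 and 9.09 in IVM replicates 1 to 5 and 11.12, 11.53, 11.23, 11.16 and 11.49 in immature replicates 1 to 5. The groups lay far apart, and *PRMT5* fell by 2.39 (standard error 0.11, adjusted p = 1.23e-06, limma). *TDRD3*, a Tudor protein better known as the partner of the topoisomerase TOP3B, was at 7.85 ± 0.18 in IVM and 9.38 ± 0.09 in immature oocytes and fell by 1.53 (adjusted p = 5.26e-06). Another of its probe sets had a difference of -0.79 and did not pass (adjusted p = 0.00115). *TDRD7*, a Tudor protein with LOTUS domains like those of MARF1, had a difference of 0.76 (adjusted p = 0.0254), and *ASZ1* and *MAEL*, piRNA factors of the germ line, had 0.62 and -0.15 and did not pass. The PIWI genes, *GTSF1L* and *TDRD5* were not found by name.

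Of 14 varying decapping and P-body genes, whose products include the partners of MARF1 in human cells, 4 fell, 0 rose and the median difference was 0.32. *LSM3* had log2 values of 8.65, 8.44, 8.70, 8.32 and 9.05 in IVM replicates 1 to 5 and 12.05, 12.07, 11.89, 11.92 and 12.19 in immature replicates 1 to 5, and fell by 3.39 (standard error 0.14, adjusted p = 6.80e-07, limma). *CNOT1*, the scaffold of the CCR4-NOT deadenylase, was at 8.81 ± 0.26 in IVM and 11.9 ± 0.36 in immature oocytes and fell by 3.06 (adjusted p = 9.33e-06). *EDC3*, an enhancer of decapping, fell by 1.75 (adjusted p = 1.59e-05) and *LSM4* by 1.6 (adjusted p = 5.66e-05). The last 2 calls were not firm, since that of *EDC3* ended without IVM replicate 2 or immature replicate 1 and that of *LSM4* when any 1 array other than IVM replicates 3 and 4 was left out. *DCP1A*, a cofactor of the decapping enzyme, had a positive difference of 1.48 that did not pass (adjusted p = 0.00619), although its groups did not overlap. *EDC4* was constant, and *DCP2* and *DDX6* were not found by name.

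*PPP2CB*, the phosphatase 2A catalytic subunit whose transcript is raised in mouse oocytes without MARF1, was at 11.99 ± 0.19 in IVM and 11.3 ± 0.13 in immature oocytes (log2, SD, n = 5 each). Its difference of 0.69 (standard error 0.10) did not pass (adjusted p = 0.00121, limma), and its groups did not overlap. The other catalytic gene, *PPP2CA*, was constant. Of 9 varying subunits 1 fell and 1 rose, with a median difference of 0.06. Both calls were B56 regulatory subunits and they went in opposite directions. *PPP2R5E* had log2 values of 11.49, 11.75, 11.43, 11.40 and 11.48 in IVM replicates 1 to 5 and 9.73, 10.26, 10.00, 9.96 and 9.96 in immature replicates 1 to 5. It rose by 1.52 (adjusted p = 1.24e-05, limma), a call that ended with the arrays set to the poly-A controls. Another of its probe sets had a difference of 0.95 and did not pass (adjusted p = 0.0052, limma). *PPP2R5D*, at 7.73 ± 0.18 in IVM and 9.19 ± 0.17 in immature oocytes, fell by 1.46 (adjusted p = 2.09e-05), and lost the call without IVM replicate 2 or immature replicate 3, 4 or 5.

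The remaining lists held few calls. Of 8 varying mRNA-binding proteins of oocytes, 0 passed and the median difference was 0.35. Of 9 varying transcription and maternal-effect factors, 1 fell and 0 rose, with a median of 0.48. The gene that fell was *HSF1*, the heat shock factor, at 7.49 ± 0.08 in IVM and 8.64 ± 0.11 in immature oocytes, a fall of 1.15 (adjusted p = 3.59e-06, limma). *TDRD3*, *PRMT5*, *LSM3*, *CNOT1*, *PPP2R5E* and *HSF1* kept their calls when any single array was left out. With the replicate block over the varying probe sets, *HSF1* lost its call (adjusted p = 1.32e-04, limma) and the other 5 kept theirs. With the block over all probe sets no probe set of the array passed (smallest adjusted p 1.76e-04, limma). That fit therefore cannot tell whether the 6 calls are firm.

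**Figure D5:**
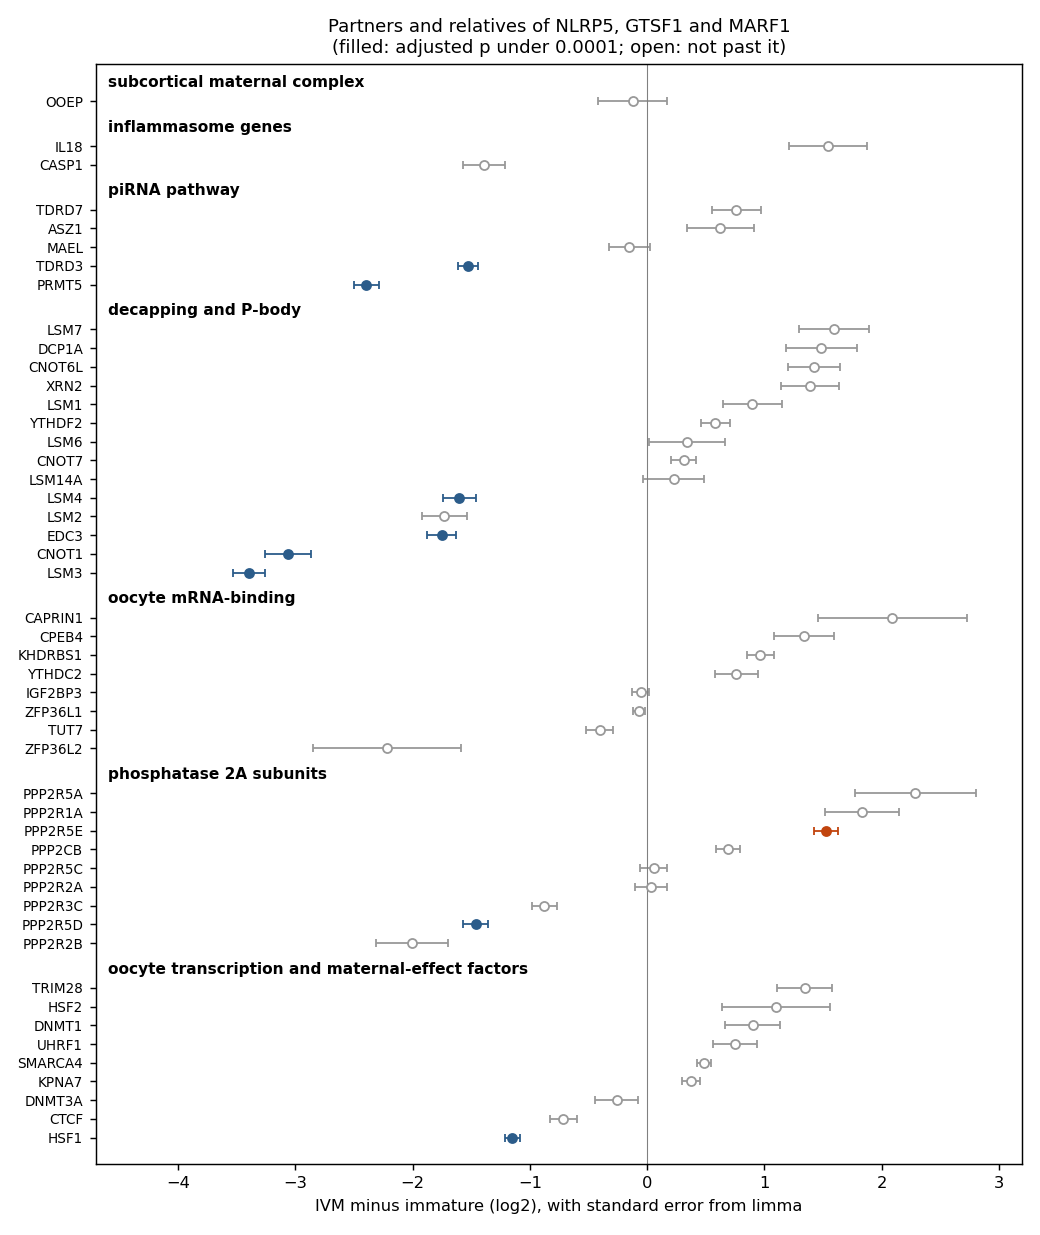
Difference of each varying gene of the partner and relative lists, IVM minus immature on the log2 scale, with the standard error from limma as bars. Filled symbols passed an adjusted p under 0.0001, blue for the 8 genes that fell and orange for the 1 that rose (*PPP2R5E*), and the 39 open symbols did not pass.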

How the data were processed

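Total RNA of each oocyte pool was amplified in 2 rounds with a 3' amplification kit and hybridized to an Affymetrix bovine array. For its quantitative PCR, the paper raised the possibility that poly(A) tail length favours some transcripts in amplification. There, fold changes tended to be higher for most genes with oligo(dT) than with random primers, without a significant difference. The part of tail length in the array differences was not tested. The authors quantified the arrays with GCOS, quantile-normalized them and summarised probes with FARMS, which gives the deposited log2 value of each probe set. A FARMS value does not compare levels between genes. No column of values was left unused (0). Symbols came from the platform annotation, updated through gene identifiers (13263 probe sets) or accessions (2), with the platform's symbol kept for 27. In all, 13292 probe sets had 1 symbol, 86 had several and 10638 were unnamed here. Control probe sets (112) entered no test. The array medians lay between 7.04 and 7.10, and the number of arrays limits the precision.

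IVM and immature arrays were compared by limma 3.58.1 (lmFit, eBayes; R 4.3.3), with Benjamini-Hochberg adjustment over 24016 probe sets and the false discovery rate of the methods, 0.0001, as threshold. The prior had 0.103 degrees of freedom, against 1.86 over the 9460 varying probe sets. A gene of a list was represented by its probe set with the highest mean. The members and lists were chosen with earlier results of these data known. Named are all member probe sets, up to 4 called genes per list with the largest difference, a few textbook partners whether called or not, and the 5 genes with the highest Pearson r to each member. *IL18*, *CASP1*, *ASZ1* and *MAEL* fall outside this rule and were named after their values were seen. Of the cell type markers, every varying oocyte and other somatic marker is named. *PTX3*, *VCAN* and *FST* are outside the rule too and were named for the size of their differences.

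Replicates are days of collection by the methods. Arrays of equal number deviated from their group means with r = 0.143, -0.347, 0.0872, 0.672 and 0.359 over the varying probe sets for replicates 1 to 5. Alternatives were single arrays left out, other centrings, the replicate block, the fit over varying probe sets, another threshold and other rules for probe sets and likeness. Tables and plots used pandas 2.3.3, scipy 1.17.1, numpy 2.4.6 and matplotlib 3.10.9 under Python 3.11.15.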

Additional observations from a re-analysis of the deposited data

How the results depend on the processing

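The 3 genes and the 2 probe sets beside them kept their direction in every setting tried, and 14 of 16 settings moved each difference by less than the spread between arrays. The others were centrings on spiked controls. With the poly-A controls the differences were -4.97 for *NLRP5*, -5.81 for *GTSF1* and 1.29 for *MARF1*, and with the hybridization controls -4.94, -5.78 and 1.32. Leaving out single arrays gave -4.25 to -3.75 for *NLRP5*, -4.98 to -4.77 for *GTSF1* and 2.14 to 2.29 for *MARF1*. With the replicate number as a replicate block the mean differences were -4.03, -4.87 and 2.22, as without it, with standard errors of 0.32, 0.21 and 0.13.

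Genes of the partner lists that fell or rose numbered 8 and 1. They were 11 and 2 in the fit over the varying probe sets, 15 and 21 at an adjusted p under 0.05, 0 and 0 with the replicate block, 5 and 1 with the replicate block over the varying probe sets, 8 and 3 with the probe set of highest variance, and 20 and 0 with the poly-A controls. Immature replicates 4 and 5 have hybridization controls at 10.75 and 10.85 (IVM arrays at 10.75 to 11.22). Set alone against the 5 IVM arrays, a comparison added after seeing the data, they gave 0 and 0 (before adjustment, 15 lower and 18 higher passed 0.05), and 3 and 0 over the varying probe sets. Without single arrays 5 to 8 genes fell, with 5 without IVM replicate 2, and 1 rose each time.

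Over all probe sets 1155 were lower and 234 higher, and of these 1145 and 225 varied. There were 1688 and 685 in the fit over the varying probe sets. At an adjusted p under 0.05 there were 3602 and 3732, of which 2997 and 3218 varied. The rest of these calls were of constant probe sets and show no difference between the groups. The other counts over all probe sets can hold such calls too. With the replicate block there were 0 and 0 (limma, smallest adjusted p 1.76e-04). Before adjustment, 4074 lower and 4731 higher passed 0.05 with that block. Leaving out single arrays gave 703 to 1097 lower and 77 to 318 higher. The cause of these shifts was not tested. Of the 5 genes most like each member, root mean square distance shared 2 for *NLRP5*, 3 for *GTSF1* and 1 for *MARF1*, and the r of deviations shared 0 for each.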

Other observations

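Several probe sets of 1 gene differed in size or direction. *XRN2*, the nuclear exonuclease, had differences of 1.39 and 1.01 on 2 probe sets and of -1.37 on the third (adjusted p = 0.00315, 0.00897 and 2.47e-04, limma), none past the threshold. *SMARCA4*, a chromatin remodeller, had 0.48 on the probe set that stood for it with 1.76 on a further one, which passed (adjusted p = 6.84e-05, limma), and 0.10 on the third, which did not (adjusted p = 0.149). *KHDRBS1*, an RNA-binding protein, had 0.96 on the probe set that stood for it, which did not pass, and 1.62 on another that did (adjusted p = 4.20e-06, limma). These genes were singled out after their values were seen.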
